A study of Mus musculus with 35 samples.

Results

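The 34 genes described here encode the enzymes, carriers and electron acceptors of fatty acid beta-oxidation, the enzymes that use ketone bodies, and the coactivator Ppargc1a. They were listed by gene symbol, with earlier results of these data known, from the 49568 genes counted in the hypothalamus of male mice. All 34 symbols were found in the count tables. The libraries held polyA RNA from B6/J mice at Zeitgeber time 16, that is 16 h after lights-on, and the study compared feeding states and forms of the clock protein PER2. Control mice with free access to food gave 10 libraries (fed controls), and control mice without food for the 16 h since lights-on gave 10 (fasted controls). PER2-S662D mice, which carry a mutant PER2 with aspartate in place of a phosphorylated serine, gave 5 fed and 5 fasted libraries. Mice labelled Per2 ko gave 5 libraries, all fasted, so this genotype had no fed group of its own. The labels gave neither the ages of the mice nor how the S662D and ko alleles were made, and did not state outright that each numbered sample was a separate mouse. The p-values therefore measure the spread between these samples.

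Mitochondrial beta-oxidation begins when carnitine palmitoyltransferases move a long fatty acid from coenzyme A to carnitine and back, which carries it across the inner mitochondrial membrane. A spiral of dehydrogenation, hydration, a further dehydrogenation and thiolysis then releases acetyl-CoA, and the electrons pass through the flavoprotein ETF to the respiratory chain. Unsaturated fatty acids also need isomerases and a reductase that move or remove their double bonds, and very long or branched chains start in peroxisomes. The brain oxidises little fatty acid compared with heart or liver, and much of that takes place in astrocytes, whereas ketone bodies made by the liver during a fast are a fuel for neurons.

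Each library held 17959586 to 37027342 counts, and 18063 genes had enough counts for a test, 33 of the 34 members among them. Cpt1b, the muscle form of the outer palmitoyltransferase, reached at most 0.369 CPM (counts scaled to the library total) and was not tested. Marker sums in fed controls were 3413 to 3668 CPM for neurons and 2122 to 2423 CPM for astrocytes, while liver markers summed to 0.0525 to 0.751 CPM over all libraries. Per2 did not set the ko libraries apart: it lay at 28.2 to 33.4 CPM there and at 26.1 to 33.1 CPM in fasted controls, although a count per gene cannot show the loss of part of a gene. In S662D libraries Per2 was lower than in controls, at 16.9 to 21.4 CPM when fed and 16.4 to 22.7 CPM when fasted. In the file headers the library numbers of controls 1 to 5, controls 6 to 10, the labelled ko and S662D form 4 separate ranges, so that effects of genotype and of number range cannot be told apart. S662D replicates 2, 3 and 4 of both feeding states have library numbers that end in 1 additional digit, and the headers do not say what it means. For 10 members (Cpt1b, Acot1, Acot2, Acadvl, Hadhb, Eci2, Etfb, Acaa1a, Bdh1 and Oxct1), at least 10% of the exon bases or of the 50-base words were shared with another gene, so their counts are uncertain.

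The members spanned a wide range of levels in fed controls, and ketone-using enzymes headed the order. Levels are compared between genes as CPM per kilobase of exon. Oxct1, which transfers coenzyme A to acetoacetate and so commits ketone bodies to oxidation, stood at 68.3 ± 1.92 CPM per kilobase (SD, n = 10). Acat1, the thiolase that splits the product into acetyl-CoA, followed at 26.6 ± 0.732 CPM per kilobase. Every fed control library of Oxct1 lay above every one of Acat1, and Acat1 lay above Hsd17b4, a peroxisomal bifunctional enzyme at 20.2 CPM per kilobase. Bdh1, the 3-hydroxybutyrate dehydrogenase that starts ketone use, was lower, at 10.7 CPM per kilobase.

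Among the palmitoyltransferases the neuronal form Cpt1c, which has little catalytic activity and sits in the endoplasmic reticulum, stood at 12.9 CPM per kilobase. The rate-limiting form Cpt1a stood at 6.79 and Cpt1b at 0.0463 CPM per kilobase. Of the exon bases of Cpt1b 81.4% overlap Chkb, and fragments over both were not counted. The inner-membrane enzyme Cpt2 (5.10 CPM per kilobase) and the acylcarnitine carrier Slc25a20 (2.71) had lower means than Cpt1a. The acyl-CoA dehydrogenases, which open each turn of the spiral at different chain lengths, ran from Acadl (17.3 CPM per kilobase) through Acadsb (11.2), Acadvl (10.3) and Acadm (8.31) to Acads (3.96). Of the exon bases of Acadvl 42.9% overlap Dvl2. Of the electron acceptors, Etfa stood at 17.1 CPM per kilobase and its partner subunit Etfb at 3.17, although 58.2% of the exon bases of Etfb overlap other genes and fragments over both were not counted. The lowest tested member was Ehhadh, a peroxisomal bifunctional enzyme, at 1.42 CPM per kilobase.

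In all, 26 of the 34 members lay above 4.04 CPM per kilobase, the median of the genes tested. Of the 33 pairs of neighbours in the order, 5 had ranges that did not overlap: Oxct1 over Acat1, Acat1 over Hsd17b4, Echs1 over Hadh, Slc25a20 over Ehhadh, and Ehhadh over Cpt1b. The ranges of the other pairs overlapped.

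**Figure D1:**
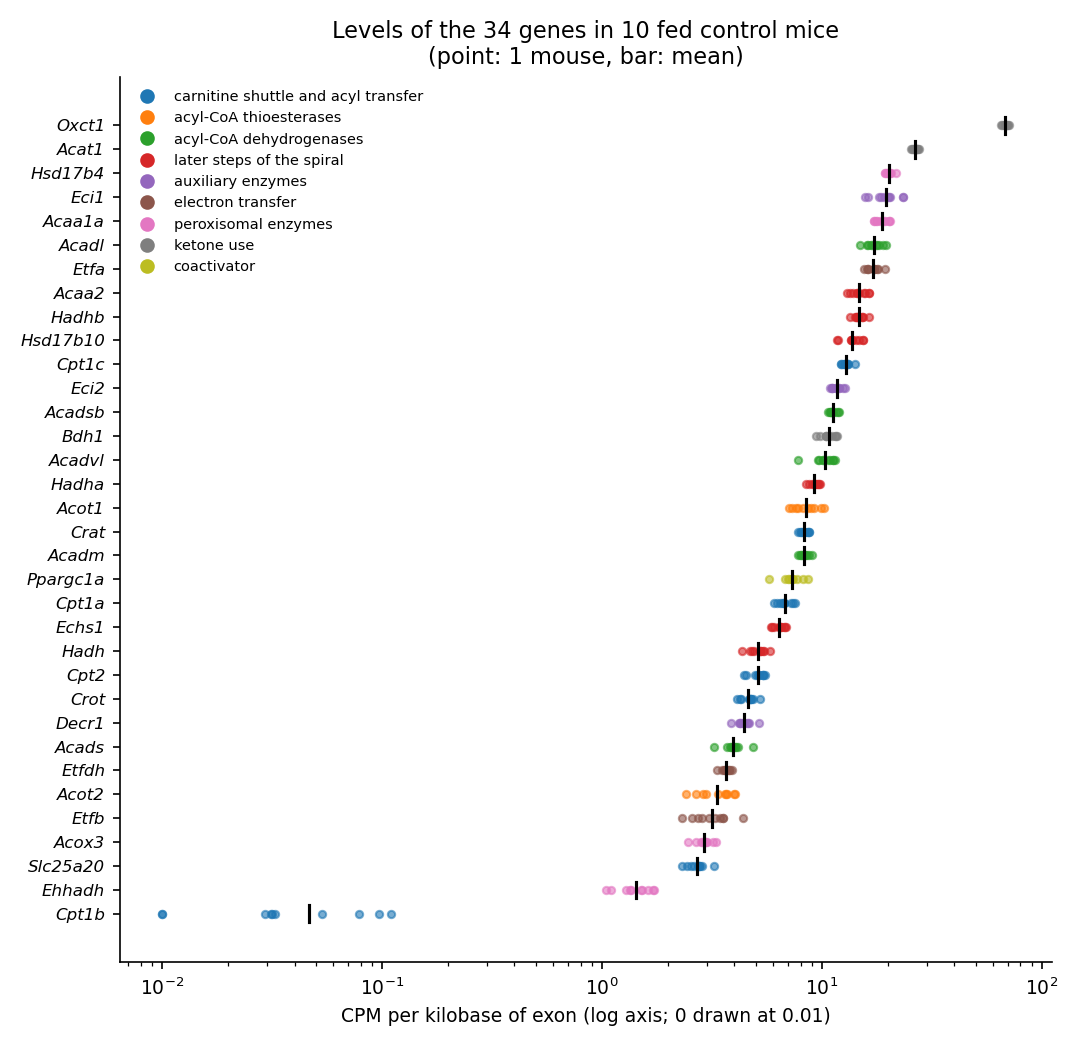
Levels of the 34 members in the 10 fed control libraries, in CPM per kilobase of exon on a log axis, 1 point per library and a line at the mean. Libraries with no count are drawn at 0.01. Oxct1 and Acat1 head the order at 68.3 and 26.6 CPM per kilobase, and Cpt1b lies far below all others at 0.0463. Of the exon bases of Cpt1b 81.4% overlap another gene.

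The members varied little between conditions. Within groups, the coefficient of variation of the 33 tested members ran from 3.01% for Oxct1 to 22.3% for Etfb, with a median of 7.08%, and it was below 10% for 25 of them. The ratio of the highest to the lowest of the 5 group means ran from 1.02 for Hadha to 1.32 for Acot1, with a median of 1.11, and it was below 1.2 for 28 of the 33. Fed S662D mice had the lowest group mean for 17 of the 33 members and the highest for 3. These values were not worked out for all genes, so they do not show whether the members differ from other genes.

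With fasting of control mice, 2 of the 33 tested members rose, Eci2 and Cpt2, and none fell (edgeR's quasi-likelihood test, Benjamini-Hochberg adjusted p below 0.05, the threshold for a call throughout). Over all genes tested 3.88% were called, 2.2% higher and 1.68% lower, so the members' share lies near the background. At an unadjusted p below 0.05 there were 7 members, against 13.3% of all genes. The fold changes of 20 members were positive and those of 13 negative, with a median log2 fold change of 0.0245 beside 0.00227 for all genes. The changes were small: all 33 intervals (95%) lay within 0.5 of zero on the log2 scale, and 28 lay within 0.3. In bulk tissue, a change in the number of cells of a type and a change in RNA per cell cannot be told apart.

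Eci2 (chromosome 13, 34977748 to 35027094, minus strand, mm10) encodes an enoyl-CoA isomerase that repositions double bonds of unsaturated fatty acids and is found in mitochondria and peroxisomes. Its lowest, median and highest values were 28.6, 30.2 and 33.3 CPM in the 10 fed controls and 32.0, 34.98 and 37.3 CPM in the 10 fasted controls. The fasted libraries were shifted upward, and the groups overlapped between 32.0 and 33.3 CPM. The log2 fold change was 0.19 (SE 0.04, adjusted p = 0.00105, edgeR), a rise of 14.4%. Of its 50-base words, 11.1% also occur in other genes, among them Eci3.

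Cpt2 (chromosome 4, 107903981 to 107923610, minus strand, mm10) returns acyl groups from carnitine to coenzyme A inside the mitochondrion. It ran over 10.6, 12.3 and 13.1 CPM (lowest, median, highest) in fed controls and over 12.8, 13.7 and 15.6 CPM in fasted controls. Here too the fasted libraries were shifted upward, with a short overlap. The log2 fold change was 0.21 (SE 0.05, adjusted p = 0.0102, edgeR), a rise of 15.7%.

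The other tested members of the carnitine shuttle were not called, although 5 of the 6 fold changes, Cpt2 included, were positive. Cpt1a, which sets the rate of entry, ran over 26.1, 29.0 and 32.3 CPM (lowest, median, highest) in fed controls and over 31.1, 32.5 and 35.8 CPM in fasted controls. Its log2 fold change of 0.17 (SE 0.05) had an adjusted p of 0.0529 in edgeR's test, just past the threshold, and the groups overlapped. Crot, the peroxisomal carnitine octanoyltransferase, gave a log2 fold change of 0.13 (adjusted p = 0.155, edgeR), with values of 22.5, 25.7 and 28.6 CPM in fed and 25.0, 27.1 and 34.2 CPM in fasted controls. Its highest fasted value, in replicate 5, stood apart from the other 9. Cpt1c, Crat and Slc25a20 had log2 fold changes of 0.03, 0.02 and -0.03.

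None of the 5 acyl-CoA dehydrogenases was called. The closest was the long-chain enzyme Acadl, with 29.8, 34.6 and 39.3 CPM (lowest, median, highest) in fed and 34.6, 36.9 and 39.7 CPM in fasted controls (log2 fold change 0.10, adjusted p = 0.242, edgeR). The medium-chain enzyme Acadm gave -0.04 and the short-chain enzyme Acads 0.04 on the log2 scale. The 6 genes of the later steps, including both subunits of the trifunctional protein (Hadha and Hadhb), had no call and log2 fold changes from -0.04 to 0.10. Etfa gave 0.02, Etfdh 0.03 and Etfb -0.02 on the log2 scale, with no call among these electron carriers. The thioesterases Acot1 and Acot2, which release free fatty acids from coenzyme A, had log2 fold changes of -0.16 and -0.15, and Acot1 had an adjusted p of 0.363 (edgeR).

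Among the 4 peroxisomal enzymes, Acox3, an oxidase for branched chains, had the only positive fold change (0.12 on the log2 scale, adjusted p = 0.117, edgeR). Its values were 28.5, 33.97 and 38.1 CPM (lowest, median, highest) in fed and 32.6, 37.1 and 39.4 CPM in fasted controls, ranges that overlapped widely. The 3 ketone-using genes had no call. Oxct1 ran over 240.5, 254.9 and 263.7 CPM in fed and 231.2, 248.1 and 252.5 CPM in fasted controls (log2 fold change -0.04, adjusted p = 0.546, edgeR), with an interval from -0.10 to 0.01. Bdh1 gave -0.04 and Acat1 0.03 on the log2 scale. Ppargc1a, a coactivator of oxidative genes, gave 0.06 (adjusted p = 0.789, edgeR).

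In control mice some markers of other cells moved with fasting, and the mitochondrial share was shifted upward in controls 1 to 5. Endothelial marker sums were 142 to 169 CPM in fed and 116 to 150 CPM in fasted controls, with 1 of 4 markers called lower. Microglial sums were 125 to 149 and 106 to 142 CPM, with 2 of 4 markers called lower, and astrocyte sums were 2122 to 2423 and 2098 to 2473 CPM, with 1 of 6 markers called higher and 1 lower. No marker of these 3 lists was below 1 CPM. Mitochondrially encoded genes took 6.88% to 7.36% of the counts in fed and 7.27% to 8.70% in fasted controls 1 to 5, and 6.69% to 7.37% and 6.81% to 7.29% in controls 6 to 10. The part of these cells and of this share in the fold changes of the members was not tested.

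**Figure D2:**
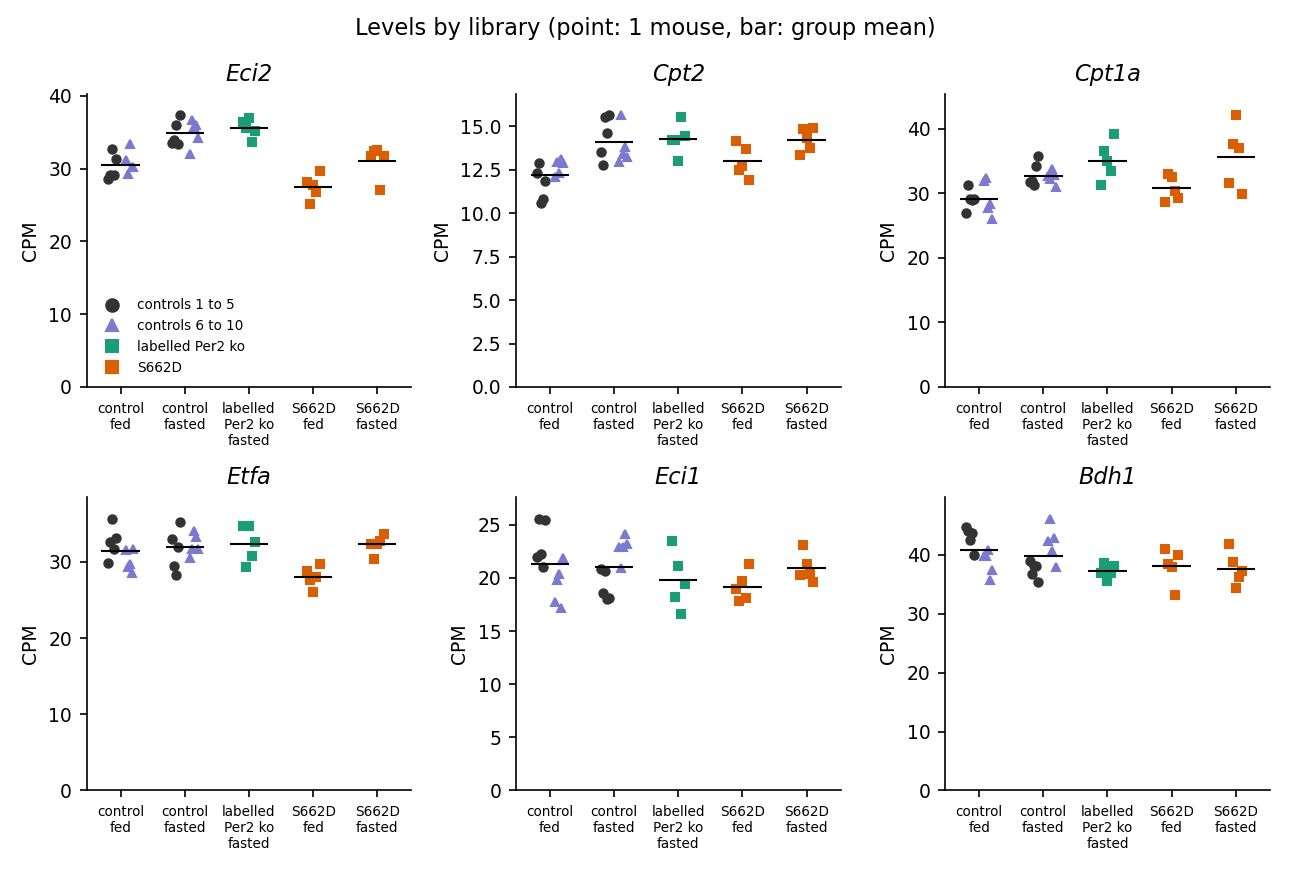
CPM of Eci2, Cpt2, Cpt1a, Etfa, Eci1 and Bdh1 in each of the 35 libraries by group, 1 point per library with a line at the group mean, on linear axes that start at 0. Fasted control libraries of Eci2 lie at 32.0 to 37.3 CPM and fed ones at 28.6 to 33.3 CPM.

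Upstream sequence is shown for Eci2 and Cpt2, because these members were called, for Acadm, because it held the only member match to the half-site of the estrogen-related receptors, and for Hadhb, because it shares its upstream region with Hadha. Each sequence is the longest stretch without an annotated exon in the 250 bases before the RefSeq start (RefSeq, GRCm38.p6), written 5′ to 3′ on the strand of the gene. Capitals mark the receptor half-site. For Eci2 the RefSeq start lies within the longer span that was counted.
Eci2, chr13:34994282-34994394, minus strand: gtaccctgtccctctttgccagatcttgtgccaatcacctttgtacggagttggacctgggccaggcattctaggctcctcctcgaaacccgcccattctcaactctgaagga
Cpt2, chr4:107923611-107923839, minus strand: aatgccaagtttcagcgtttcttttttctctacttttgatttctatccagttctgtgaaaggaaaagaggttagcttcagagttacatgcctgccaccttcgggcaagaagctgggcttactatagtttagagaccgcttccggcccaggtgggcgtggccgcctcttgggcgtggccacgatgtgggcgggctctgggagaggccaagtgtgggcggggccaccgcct
Acadm, chr3:153944644-153944893, minus strand: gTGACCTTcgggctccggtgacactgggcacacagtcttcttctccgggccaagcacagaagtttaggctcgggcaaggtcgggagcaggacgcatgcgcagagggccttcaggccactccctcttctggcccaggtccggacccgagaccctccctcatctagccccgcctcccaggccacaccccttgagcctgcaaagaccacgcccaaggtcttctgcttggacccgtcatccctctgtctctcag
Hadhb, chr5:30155163-30155247, plus strand: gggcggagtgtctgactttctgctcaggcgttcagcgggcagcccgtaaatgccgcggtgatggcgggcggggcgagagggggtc

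RefSeq windows were found for 28 of the 34 members, and 4 motifs were searched in the whole windows on both strands. The direct repeat of AGGNCA with 1 base between its copies, bound by the fatty acid receptors of the PPAR family with their partner RXR, was in 0 of the 28 and in 0.338% of 32851 promoter windows of the same length. The half-site AAGGTCA of the estrogen-related receptors was in 1 member, Acadm, 249 bases before the start on the opposite strand, and in 4.08% of all windows. The glucocorticoid receptor core ACANNNTGT was in 3 members, Acot1, Cpt1c and Hadh, at 200, 180 and 130 bases before the start, and in 5.84% of all windows. The E-box CACGTG, bound by CLOCK and BMAL1, was in 0 members and in 6.02% of all windows. A match describes letters only, and the lack of one says only that these letters are not in this window. Hadha and Hadhb, the subunits of 1 protein complex, start 273 bases apart on opposite strands, and their windows share 228 bases. Their fasting fold changes in controls were 0.01 and 0.02 on the log2 scale.

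The control libraries fall into 2 sets of library numbers, and 5 members responded differently to fasting in them, a comparison added after the data had been seen, from 1 fit to all 35 libraries with the sets as separate groups. The response of controls 6 to 10 minus that of controls 1 to 5 was called for Etfb, Eci1, Acadvl, Hadh and Bdh1, each time positive, in 5 of 33 members beside 10.6% of all genes and 5.99% called in that direction. Eci1, the mitochondrial isomerase, fell within controls 1 to 5, from 21.0 to 25.6 CPM fed to 18.0 to 20.8 CPM fasted (log2 fold change -0.27, adjusted p = 0.0230, edgeR). Within controls 6 to 10 it was at 17.1 to 21.8 CPM fed and 21.0 to 24.1 CPM fasted (0.24, adjusted p = 0.0828, edgeR). The difference of the responses was 0.51 (SE 0.11, adjusted p = 0.00499, edgeR), and the pooled value was -0.02.

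Bdh1 likewise fell in controls 1 to 5, from 39.9 to 44.7 CPM fed to 35.4 to 39.0 CPM fasted (log2 fold change -0.20, adjusted p = 0.0253, edgeR). In controls 6 to 10 its fed values were 35.8 to 40.8 CPM and its fasted values 37.9 to 46.1 CPM (0.12, adjusted p = 0.246, edgeR). The difference of the responses was 0.31 (SE 0.08, adjusted p = 0.0125, edgeR). Of the other 3 genes, Acadvl gave a difference of 0.40 (SE 0.11, adjusted p = 0.0190), Hadh 0.35 (SE 0.10, adjusted p = 0.0203) and Etfb 0.82 (SE 0.25, adjusted p = 0.0285) in edgeR's test. Acadvl and Etfb share exon bases with other genes, and Etfb lay at only 2.00 to 5.26 CPM in the control libraries.

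Eci2 and Cpt2 had positive fold changes in both sets. Eci2 rose in controls 1 to 5, from 28.6 to 32.8 CPM fed to 33.4 to 37.3 CPM fasted, without overlap (log2 fold change 0.21, adjusted p = 0.0163, edgeR). In controls 6 to 10 its ranges were 29.2 to 33.3 and 32.0 to 36.7 CPM (0.18, adjusted p = 0.0690, edgeR). Cpt2 rose in controls 1 to 5 by 0.30 on the log2 scale (adjusted p = 0.00733, edgeR) and gave 0.12 in controls 6 to 10 (adjusted p = 0.350, edgeR). Within controls 1 to 5 there were thus 2 members called higher and 2 lower (8.28% of all genes called, 3.9% higher and 4.38% lower). Within controls 6 to 10 the 1 member called was Acadvl, higher by 0.30 (adjusted p = 0.0258, edgeR, with 3.04% of all genes called and 1.68% called higher). When the fit instead left out controls 1 to 5, 0 members were called with fasting in controls 6 to 10, beside 1.71% of all genes, and Acadvl had an adjusted p of 0.0643 (edgeR). Between the sets, edgeR called 0 members in fed mice (0% of all genes called, and 8 members at an unadjusted p below 0.05 against 13.5% of all genes) and 0 in fasted mice (6.02% of all genes called, and 8 members unadjusted against 22.7%), and DESeq2 was not run on these contrasts.

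**Figure D3:**
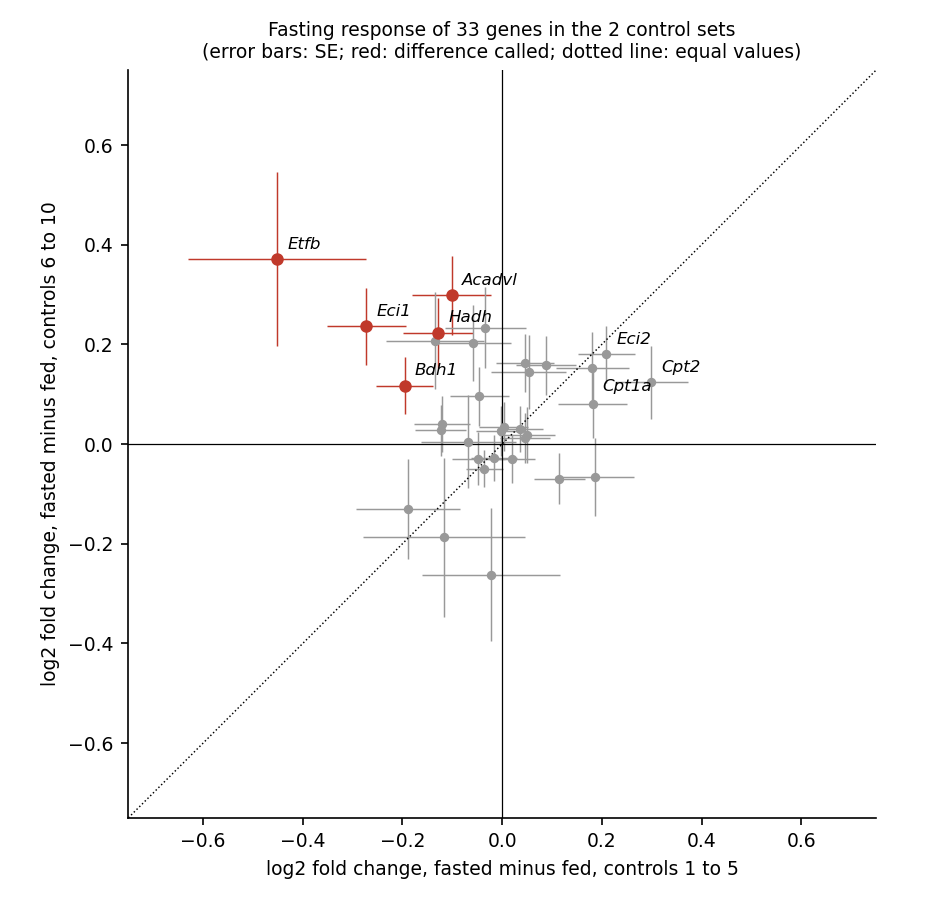
Log2 fold change with fasting of each of the 33 tested members in controls 1 to 5 (horizontal axis) and in controls 6 to 10 (vertical axis), 1 point per gene. Red points are the 5 genes whose responses differed between the sets (Etfb, Eci1, Acadvl, Hadh and Bdh1), all above the line of equal response.

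In S662D mice fasting left 0 of the 33 members called by edgeR, beside 2.64% of all genes. DESeq2 called 2, Eci2 and Etfa, beside 3.48% of all genes, and 4 members had an unadjusted edgeR p below 0.05, against 14.3% of all genes. With 5 libraries a group the standard errors of the members were larger than in controls, with a median of 0.0648 beside 0.0465. The fold changes of 27 members were positive and those of 6 negative, with a median log2 fold change of 0.066 beside 7.05e-05 for all genes. That split depends on the scaling: with library size alone in place of TMM, 19 were positive and the median was 0.0277, while the split of calls over all genes moved from 326 higher and 150 lower to 262 higher and 328 lower. Mitochondrially encoded genes took 6.24% to 6.82% of the counts in fed and 6.85% to 8.27% in fasted S662D libraries, whose part in these fold changes was not tested.

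Etfa, a subunit of the electron transfer flavoprotein, came closest to a call. Its fed replicates 1 to 5 were at 28.8, 27.6, 26.1, 28.1 and 29.8 CPM and its fasted replicates at 32.4, 30.4, 32.3, 32.8 and 33.7 CPM. Every fasted library lay above every fed one, the 1 member whose groups did not overlap, beside 3.3% of all genes. The log2 fold change was 0.20 (SE 0.06, adjusted p = 0.0536, edgeR).

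Eci2 stood at 28.2, 25.1, 27.8, 26.8 and 29.6 CPM in fed S662D replicates 1 to 5 and at 31.7, 32.4, 32.6, 27.1 and 31.8 CPM when fasted. Replicate 4 alone of the fasted libraries lay within the fed range, and the log2 fold change was 0.18 (SE 0.06, adjusted p = 0.0628, edgeR). Acadl ran over 32.7, 29.3, 32.6, 31.3 and 34.3 CPM fed and 33.6, 37.3, 39.1, 35.2 and 37.1 CPM fasted (0.19, adjusted p = 0.0841, edgeR). Fasted replicate 1 of Acadl was the 1 fasted library within the fed range.

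Cpt1a was at 28.7, 32.95, 32.5, 30.3 and 29.3 CPM in fed S662D replicates 1 to 5 and at 31.6, 37.7, 42.1, 37.0 and 29.9 CPM in fasted ones. The log2 fold change was 0.21 (adjusted p = 0.11, edgeR), and the fasted libraries fell into those with the additional digit (37.0 to 42.1 CPM) and those without it (29.9 to 31.6 CPM). With the 6 libraries that carry the digit alone, Cpt1a and Acadl were called higher, 2 of 33 members beside 3.71% of all genes called. Decr1, the reductase for dienoyl-CoA from polyunsaturated fatty acids, ran over 18.0, 15.5, 15.2, 14.6 and 18.3 CPM fed and 18.9, 18.0, 18.2, 17.4 and 17.6 CPM fasted (0.15, adjusted p = 0.362, edgeR). Its 2 highest fed values overlapped the fasted ones.

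The control and S662D fasting comparisons share no library. Fold changes had the same sign in both for 24 of the 33 members (72.7%), of which 19 were positive and 5 negative, beside 58.4% of all genes. The carnitine shuttle was positive in 5 of 6 members in controls and 6 of 6 in S662D, and the later steps likewise in 5 of 6 and 6 of 6. Both thioesterases were negative in each. Direct tests found no member whose response differed between the genotypes. The interaction was called for 0 members by edgeR (0% of all genes) and 0 by DESeq2, and 1 member, Etfa, had an unadjusted p below 0.05, against 6.37% of all genes.

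For Etfa the S662D response exceeded the control response by 0.18 on the log2 scale (SE 0.07, adjusted p = 0.766, edgeR). The next members were Acaa1a (0.09, adjusted p = 0.832), Eci1 (0.15, adjusted p = 0.832), Oxct1 (0.06, adjusted p = 0.838) and Hsd17b4 (0.07, adjusted p = 0.839), all in edgeR's test. For 32 of the 33 members the interval of the interaction lay within 0.5 of zero on the log2 scale. Against controls 1 to 5 alone the interaction was called for 1 member, Eci1 (0.40, adjusted p = 0.0456, edgeR), beside 2.73% of all genes.

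**Figure D4:**
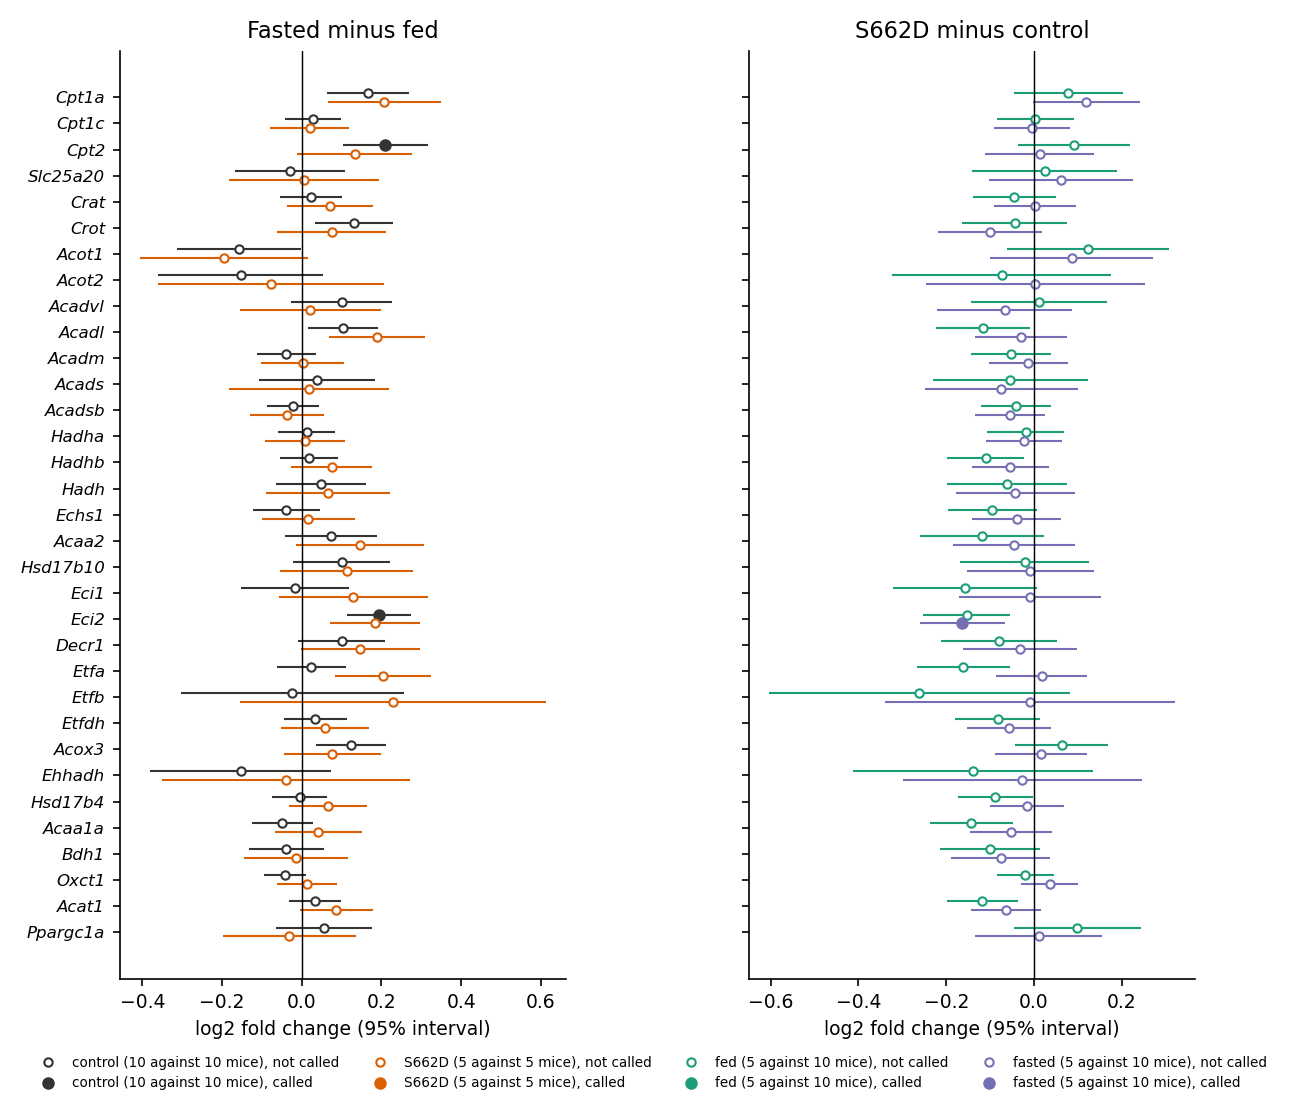
Log2 fold changes of the 33 tested members with 95% intervals, with fasted minus fed in control and S662D mice on the left and S662D minus control in fed and fasted mice on the right. Filled points are called, which holds for Eci2 and Cpt2 with fasting in controls and for Eci2 in fasted S662D against fasted control mice.

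Fed S662D mice had slightly lower values of most members than fed controls, with no single call. Of the 33, 25 fold changes were negative and 8 positive, and the median log2 difference was -0.0609 beside -0.00758 for all genes. By edgeR 0 members were called, beside 4.69% of all genes. At an unadjusted p below 0.05 there were 7, against 21% of all genes, and DESeq2 called 4 (Eci2, Etfa, Acaa1a and Acat1), beside 7.89% of all genes. The negative differences took in 6 of 6 genes of the later steps, 3 of 3 auxiliary enzymes, 3 of 3 electron carriers, 3 of 3 ketone-using genes and 4 of 5 acyl-CoA dehydrogenases. The carnitine shuttle had 4 positive and 2 negative.

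Eci2 was at 28.6, 30.2 and 33.3 CPM (lowest, median, highest) in fed controls and at 25.1 to 29.6 CPM in fed S662D mice, with a short overlap (log2 difference -0.15, SE 0.05, adjusted p = 0.0564, edgeR). Etfa lay at 28.6, 31.7 and 35.7 CPM in fed controls and 26.1 to 29.8 CPM in fed S662D mice (-0.16, SE 0.05, adjusted p = 0.0622, edgeR). Both genes sat at the lower edge of the control range or under it in S662D. Acaa1a, the peroxisomal thiolase, ran over 76.2, 83.2 and 90.0 CPM in fed controls and was at 79.7, 73.4, 74.5, 70.7 and 77.4 CPM in S662D replicates 1 to 5 (-0.14, adjusted p = 0.0637, edgeR). Of its 50-base words, 17.1% occur in other genes, Acaa1b among them.

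Acat1 ran over 95.7, 100.9 and 104.0 CPM (lowest, median, highest) in fed controls and was at 96.1, 88.4, 95.5, 88.2 and 93.2 CPM in fed S662D replicates 1 to 5 (log2 difference -0.12, SE 0.04, adjusted p = 0.0724, edgeR). Replicate 1 was the 1 S662D library to reach the control range. Hadhb, the thiolase subunit of the trifunctional protein, ran over 88.2, 95.8 and 107.7 CPM in fed controls and was at 94.4, 88.6, 86.9, 87.1 and 93.7 CPM in S662D (-0.11, adjusted p = 0.131, edgeR). For Oxct1 the values were 240.5 to 263.7 CPM in controls and 244.4 to 252.9 CPM in S662D, inside the control range.

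The S662D libraries with the additional digit were lower than those without it for several of these genes. In fed S662D mice Acaa1a was at 70.7 to 74.5 CPM with the digit and 77.4 to 79.7 CPM without, Hadhb at 86.9 to 88.6 and 93.7 to 94.4 CPM, and Acaa2, the mitochondrial thiolase, at 18.1 to 19.9 and 21.2 to 24.7 CPM. With the 3 libraries that carry the digit 6 of 33 members were called against fed controls, beside 16.9% of all genes, and with the other 2 libraries 0, beside 0.0854%. Against controls 1 to 5 alone 5 were called, beside 9.79% of all genes, and against controls 6 to 10 there were 0, beside 0.185%. Mitochondrially encoded genes took 6.24% to 6.82% of the counts in fed S662D libraries and 6.69% to 7.37% in fed controls. Endothelial marker sums were 155 to 184 and 142 to 169 CPM, with 2 of 4 markers called higher in S662D. Oligodendrocyte marker sums were 6425 to 7712 CPM in fed S662D mice and 6363 to 8564 CPM in fed controls, with 1 of 5 markers called lower and 4 of 5 differences negative (median log2 difference -0.0789). Their part in the differences was not tested.

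**Figure D5:**
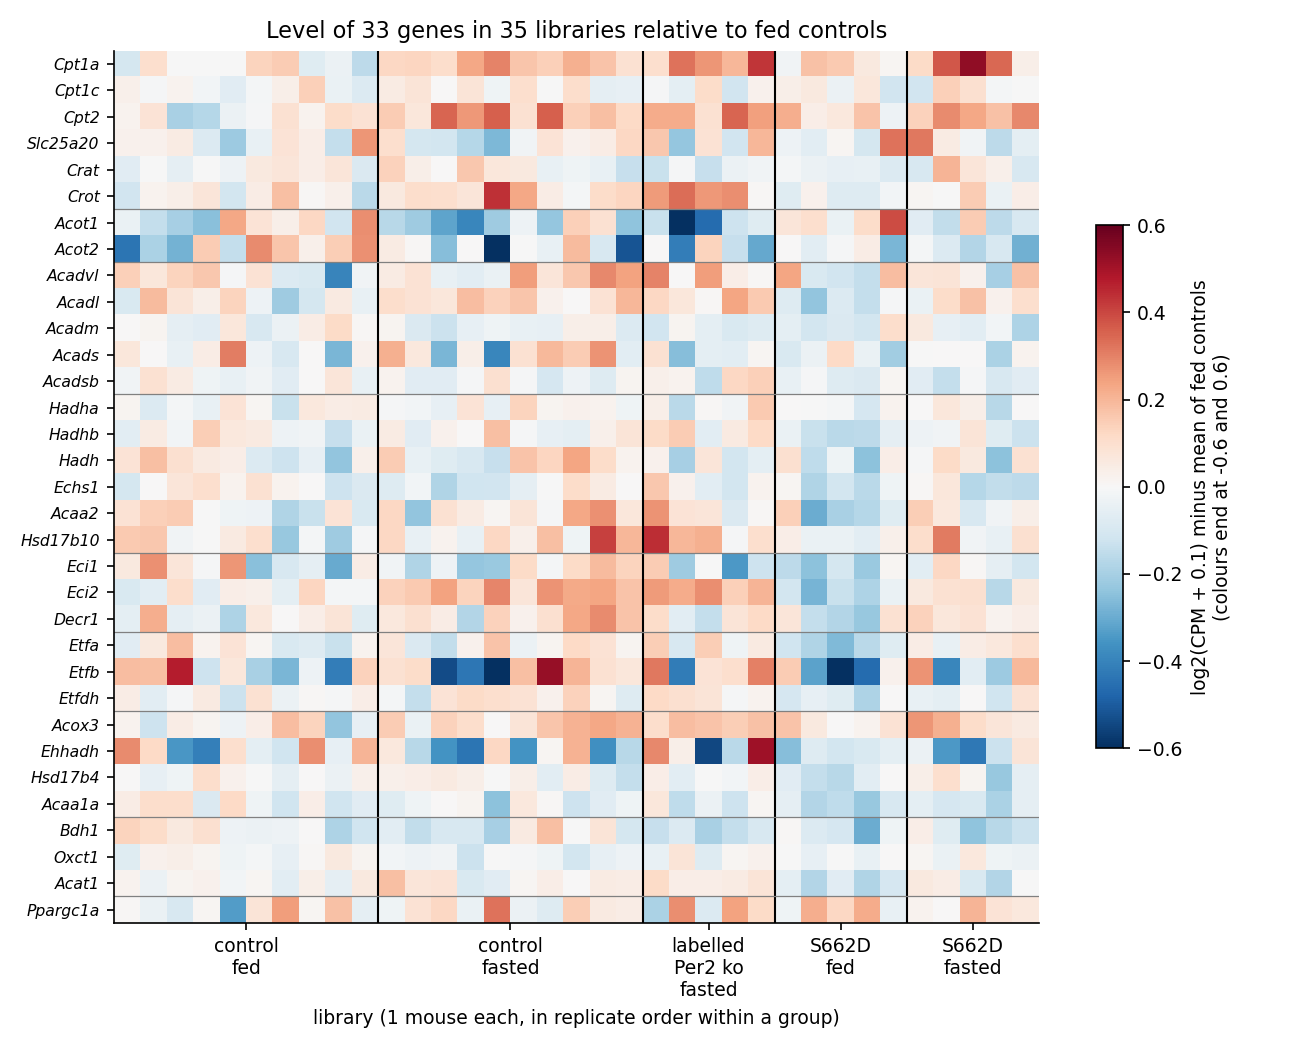
Each of the 33 tested members (rows) in each of the 35 libraries (columns, by group), as log2(CPM + 0.1) minus the mean of the fed controls. Colours end at 0.6 on either side. The median member of a library lies between -0.106 and -0.00778 in all 5 fed S662D libraries and between -0.0516 and 0.0273 in fed controls.

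In fasted mice, Eci2 was the 1 member called between S662D and control, and it was lower in S662D (5.57% of all genes were called, and 2.23% were called lower). The S662D replicates, at 31.7, 32.4, 32.6, 27.1 and 31.8 CPM, lay in or under the lower part of the control range of 32.0, 34.98 and 37.3 CPM (lowest, median, highest). The log2 difference was -0.16 (SE 0.05, adjusted p = 0.0346, edgeR). The call was kept when 8 of the 15 libraries were left out in turn and lost without S662D replicates 2, 3 or 4 or control replicates 3, 5, 8 or 9. It was also lost with no filter on low counts, with only the compared groups in the fit, with the replicate number as a block (adjusted p = 0.0549, edgeR), against either set of controls alone, without the digit-bearing S662D libraries and with the digit as a term. Without S662D replicate 4, which stood apart from the other 4 at 27.1 CPM, the difference of Eci2 was -0.12 (adjusted p = 0.216, edgeR).

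No other member of the fasted comparison had an unadjusted p below 0.05, so 1 of 33 members passed it against 20.8% of all genes. Differences were negative for 23 and positive for 10, with a median of -0.0229 on the log2 scale. With library size alone as the scaling 30 were negative and the median was -0.0625, while the split of calls over all genes moved from 605 higher and 402 lower to 259 and 763. Cpt1a was at 31.6, 37.7, 42.1, 37.0 and 29.9 CPM in fasted S662D and at 31.1, 32.5 and 35.8 CPM (lowest, median, highest) in fasted controls (0.12, adjusted p = 0.255, edgeR). Its S662D libraries lay on both sides of the control range. Crot gave -0.10 (adjusted p = 0.342), Acat1 -0.06 (adjusted p = 0.372) and Acadsb, an enzyme for short branched chains, -0.05 (adjusted p = 0.469) in edgeR's test. Endothelial marker sums were 129 to 182 CPM in fasted S662D mice and 116 to 150 CPM in fasted controls, with 3 of 4 markers called higher. Neuron marker sums were 3595 to 3990 and 3474 to 3714 CPM, with 1 of 6 markers called higher and 5 of 6 differences positive. Their part was not tested.

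For the libraries labelled Per2 ko, no member was called against fasted controls. By edgeR 0 of 33 were called (0.0277% of all genes), by DESeq2 0, and 0 had an unadjusted p below 0.05, against 6.07% of all genes. All 33 intervals lay within 0.5 of zero on the log2 scale and 30 within 0.3. Differences were positive for 21 members and negative for 12, with a median of 0.0185, and with library size alone 16 were positive and the median was -0.00112. Crat, the carnitine acetyltransferase, was at 40.9, 44.6, 40.6, 43.8 and 44.1 CPM in ko replicates 1 to 5 and at 40.7, 45.4 and 50.2 CPM (lowest, median, highest) in fasted controls (-0.09, SE 0.05, adjusted p = 0.841, edgeR). These ko values lay within or just under the control range.

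Crot was at 30.1, 31.9, 30.2, 30.6 and 25.4 CPM in the ko libraries, beside 25.0, 27.1 and 34.2 CPM (lowest, median, highest) in fasted controls (0.10, adjusted p = 0.855, edgeR). Bdh1 was at 36.9, 38.5, 35.6, 36.9 and 38.2 CPM, beside 35.4, 38.6 and 46.1 CPM (-0.09, adjusted p = 0.855, edgeR). Both sets of ko values lay inside the control range, but for Crot the top of that range was 1 library, replicate 5. The next fasted control was at 29.7 CPM, below ko replicates 1 to 4, while ko replicate 5 stood apart as low. Cpt1a was at 31.3, 36.5, 34.97, 33.5 and 39.2 CPM (0.10, adjusted p = 0.855, edgeR), with replicates 2 and 5 above all fasted controls. Hadh, the dehydrogenase of the later steps, was at 25.9, 22.2, 26.7, 23.6 and 24.4 CPM, beside 23.1, 26.6 and 30.0 CPM (-0.11, adjusted p = 0.866, edgeR).

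A list of 38 further genes of the pathway, for fatty acid entry, fuel choice, ketone formation, regulation and other peroxisomal and dehydrogenase steps, was tested in the same fit. Like the members, this list was chosen with earlier results of these data known. In fasted controls 7 of the 38 were called higher and 0 lower, beside 2.2% and 1.68% of all genes. The median log2 fold change of the list was 0.0344. With the 2 control sets as separate groups, 9 were called higher and 2 lower in controls 1 to 5 (3.9% and 4.38% of all genes). In controls 6 to 10, 5 were called higher and 0 lower (3.04% of all genes called). The response of controls 6 to 10 minus that of controls 1 to 5 was called positive for 4 and negative for 3, beside 10.6% of all genes called. Of the 6 genes for malonyl-CoA and fuel choice, 4 rose. Pdk4, which slows glucose oxidation by phosphorylating pyruvate dehydrogenase, went from a mean of 9.52 to 21.1 CPM, and its relative Pdk2 from 97.2 to 111.7 CPM (0.20, adjusted p = 0.00551, edgeR). Fasted Pdk4 lay at 22.97 to 26.5 CPM in controls 1 to 5 and at 11.1 to 26.0 CPM in controls 6 to 10. Ucp2, an inner-membrane carrier, went from 55.6 to 77.2 CPM (0.47, adjusted p = 2.18e-07, edgeR). Acacb, which makes the malonyl-CoA that inhibits CPT1, rose from 9.77 to 12.9 CPM (0.40, adjusted p = 0.00065, edgeR).

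The lipase inhibitor Angptl4, a target of PPAR receptors, rose from 2.68 to 8.22 CPM in fasted controls (log2 fold change 1.61, SE 0.18, adjusted p = 2.18e-07, edgeR). Slc27a1, a fatty acid transport protein, rose from 96.2 to 108.2 CPM (0.17, adjusted p = 0.00936, edgeR), the 1 call among the 10 genes of entry and activation. Of the 38 genes, 29 had an upstream window. The E-box CACGTG was in 3 of them, Pdk2, Slc16a1 and Slc27a1, beside 6.02% of all windows, and Slc16a1 was not called with fasting of controls. The half-site of the estrogen-related receptors was in 1 (Acsl6, 4.08% of all windows) and the glucocorticoid receptor core in 2 (Acsl6 and Ivd, 5.84%). The PPAR repeat was in 0 (0.338% of all windows). In S662D mice 6 of the 38 genes were called higher and 0 lower with fasting, beside 2.64% of all genes called. Among the 6 were Angptl4 (1.54), Pdk4 (1.11), Ucp2 (0.47), Acacb (0.43) and Pdk2 (0.25 on the log2 scale). Slc27a1 gave 0.19 there (adjusted p = 0.0786, edgeR). Fasted S662D replicate 1, which lacks the additional digit, had the lowest value of its group for Angptl4 (5.18 CPM), Pdk4 (13.0 CPM) and Ucp2 (65.0 CPM). Replicate 5, also without the digit, was at 7.65, 19.4 and 78.3 CPM in that order. Replicates 2 to 4, with the digit, were at 9.07 to 20.3, 18.9 to 26.2 and 83.6 to 103.0 CPM. The part of the digit was not tested.

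Between genotypes, edgeR called 1 gene of the 38 in fasted mice, beside 5.57% of all genes. This was Ppard, a fatty acid receptor of the PPAR family, higher in S662D (34.04 beside 26.23 CPM on average, log2 difference 0.37, SE 0.07, adjusted p = 0.00151, edgeR). Fasted S662D libraries with the additional digit were at 35.49 to 38.35 CPM of Ppard. Those without it were at 30.39 and 30.44 CPM, beside 23.55 to 30.4 CPM in fasted controls. In fed S662D mice Ppard was at 32.2 to 38.1 CPM with the digit and 26.2 and 26.8 CPM without, beside 24.97 to 32.6 CPM in fed controls. DESeq2 called 2 in fasted mice, Ppard and Slc27a4, both higher in S662D, beside 7.48% of all genes. Fasted S662D libraries of Slc27a4 were at 118.8 to 136.2 CPM with the digit and at 112.4 and 117.7 CPM without. In fed mice 0 of the 38 were called by edgeR, beside 4.69% of all genes, with 12 at an unadjusted p below 0.05 against 21%. DESeq2 called 2 in fed mice, Acaca and Acsl4, both higher in S662D, beside 7.89% of all genes. Fed S662D libraries of Acsl4 were at 92.8 to 97.0 CPM with the digit and at 76.2 and 84.05 CPM without. For Acaca they overlapped, at 119.5 to 129.3 CPM with the digit and 115.5 and 121.5 CPM without. The part of the digit in these differences was not tested. The ko libraries had 0 calls by either tool and 3 genes at an unadjusted p below 0.05, against 6.07% of all genes.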

How the data were processed

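The authors deposited 1 table of raw read counts per gene for each of the 35 libraries. Per the file headers, featureCounts 2.0.1 assigned fragments to GENCODE vM12 genes on mm10, by gene name, with multi-mapping reads included, no strand option and no fragment assigned to more than 1 gene. The submitters' processing notes name STAR 2.7.10b. Groups came from the titles. Genes passing filterByExpr (minimum count 10) entered 1 edgeR 4.0.16 quasi-likelihood fit in R 4.3.3 over all libraries with a mean per group, TMM scaling and robust estimation. Benjamini-Hochberg adjustment ran over the 18063 genes tested, and the method was tested on simulated data. The common biological coefficient of variation was 0.0900. CPM uses TMM-scaled library sizes. Depth sets the precision: Cpt1b had too few counts to test, and 81.4% of its exon bases overlap another gene. No pair of libraries of 1 group agreed within sampling noise (120 pairs, lowest chi-square per degree of freedom 2.53).

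The members and the other lists were chosen with earlier results of these data known. Named with full values were members called in at least 1 comparison and, where fewer than 5 were called, members up to 5 with the largest F statistic. Genes of the other lists are named where called. The values of some genes that this selects are not given. Alternatives were DESeq2 1.42.0, other scalings and filters, a replicate block, subsets of libraries and leaving out each library in turn.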

Additional observations from a re-analysis of the deposited data

Results flagged for a closer look

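In each group of 5 or 10 libraries, the gap between a member's highest or lowest value and the next was set against the range of the group. Of 165 such groups 14 had a library that stood apart, and chance flags about 1 in 20 groups. In fed controls these were Cpt1c in replicate 8 (79.5 CPM, next 73.8) and Hsd17b4 in replicate 4 (73.9 CPM, next 70.1), both high, and Acadvl in replicate 9 (20.9 CPM, next 25.8), low. In fasted controls they were Crot (34.2 CPM, next 29.7) and Ppargc1a (60.3 CPM, next 53.3), both high in replicate 5, and Hsd17b10 in replicate 9 (23.7 CPM, next 20.5), high. In the libraries labelled Per2 ko, Crot was low in replicate 5 (25.4 CPM, next 30.1).

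In fed S662D mice, replicate 5 was high for Slc25a20 (16.4 CPM, next 13.2) and Acadm (35 CPM, next 31.2), replicate 4 was low for Hadha (75.3 CPM, next 80.1) and replicate 1 was low for Ehhadh (3.54 CPM, next 3.92). In fasted S662D mice, replicate 4 was low for Eci2 (27.1 CPM, next 31.7) and Acads (7.84 CPM, next 8.94), and replicate 3 was high for Acot1 (14.6 CPM, next 12.5).

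The fasting response differed between the 2 sets of control libraries for 5 members by a test of the difference itself. On the log2 scale, the response of controls 6 to 10 exceeded that of controls 1 to 5 by 0.82 for Etfb, 0.51 for Eci1, 0.40 for Acadvl, 0.35 for Hadh and 0.31 for Bdh1. Over all genes 10.6% differed in this way.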

How the results depend on the processing

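Eci2 and Cpt2, the members called in the fit to all libraries, kept their direction in those comparisons under every alternative run. Calls made within subsets did not. Eci1 and Bdh1 (called lower in controls 1 to 5) had the other sign in the other control set. Acadvl, higher in controls 6 to 10, also had the other sign in the other set, and was called only in the fit to all libraries. Cpt1a in fasted S662D against control was 0.25 and called with the digit-bearing libraries and -0.09 without them. Apart from that call of Acadvl, each subset here was fitted without the other libraries of its genotype. The within-set values of the report come instead from 1 fit to all libraries. The count of members called with fasting in controls (2) was 4 within controls 1 to 5, 0 within controls 6 to 10, 3 with DESeq2, and 2 to 4 when a library was left out, with 4 without fed control replicate 7 (Cpt1a and Acox3 added). For fasting in S662D mice (0) it was 2 with DESeq2, 2 with the digit-bearing libraries, 3 with the digit as a term (Cpt1a, Eci2, Etfa), and 0 to 2 with a library left out: Eci2 and Etfa without fed replicate 5, Cpt1a and Acadl without fasted replicate 1, Eci2 without fasted replicate 4 and Cpt1a without fasted replicate 5. The interaction (0) gave 1 against controls 1 to 5 and 0 to 0 with a library left out. Fed S662D against control (0) gave 4 with DESeq2, 1 with a filter at a mean of 1 CPM, 5 against controls 1 to 5, 6 with the digit-bearing libraries and 0 to 3 with a library left out: 3 without S662D replicate 1, 2 without S662D replicate 5 or control replicate 9, and 1 without control replicate 7. Fasted S662D against control (1, Eci2) gave 0 without the filter, with only the compared groups, against either control set, without the digit-bearing libraries and with the digit as a term, 2 with the digit-bearing libraries (Cpt1a added), and 0 to 1 with a library left out. The labelled ko (0) gave 0 throughout. The causes were not tested.

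Replicate numbers showed no clear pairing of fed and fasted samples within a genotype. Correlations of same-numbered deviations ran from -0.191 to 0.0587 between fed and fasted controls, where 0 of 10 samples correlated best with their own number. Between fed and fasted S662D mice they ran from -0.109 to 0.160 (1 of 5), and between fasted controls and the labelled ko from -0.143 to 0.0522 (0 of 5). Between controls and S662D mice they ran from -0.0516 to 0.236 when fed (3 of 5) and from -0.0233 to 0.101 when fasted (2 of 5). A link by number between those groups was not settled. With the replicate number as a block, 3 members were called with fasting in controls (Cpt1a added, adjusted p = 0.0419, edgeR) and 0 in every other comparison, including Eci2 in fasted S662D mice (-0.16, adjusted p = 0.0549, edgeR).

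Counts over all genes moved with the libraries used. Fasting in controls called 701 genes, 1315 with controls 1 to 5 alone in the fit and 304 with controls 6 to 10 alone (1496 and 549 within the fit to all libraries). Fasting in S662D mice called 476, with 279 from the compared groups alone, 7 without the digit-bearing libraries and 311 without fasted replicate 2. The interaction called 0, but 486 against controls 1 to 5 and 9 with the digit-bearing libraries. S662D against control called 847 in fed mice (1741 against controls 1 to 5 and 33 against controls 6 to 10, 3106 with and 16 without the digit-bearing libraries, 23 with the digit as a term, 1426 by DESeq2). It called 1007 in fasted mice (1680, 48, 3148, 21 and 20 in that order up to the term, and 291 from the compared groups alone). Leaving out 1 library gave 66 (S662D fed replicate 4) to 1667 (replicate 1), and 154 (fasted replicate 4) to 1802 (replicate 1). The labelled ko called 5, with 3 from the compared groups alone, 2 against controls 1 to 5 and 99 against controls 6 to 10. Low counts limit Cpt1b, Etfb and Ehhadh most.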
